A study of Mus musculus with 18 samples.

Results

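The genes that make and break down the cyclic nucleotides cAMP and cGMP were followed in mouse medial prefrontal cortex. Members were the protein-coding genes named Adcy plus a number (adenylyl cyclases) or Pde plus a family number up to 11 and a letter (cyclic nucleotide phosphodiesterases). The rule found 34 genes, 10 Adcy and 24 Pde, among 54547 gene identifiers in the 18 libraries. Of the libraries, 9 came from animals on control diet and 9 from animals on chow with PLX5622 at 1200 mg/kg, an inhibitor of CSF1R, the receptor that microglia need to survive. By the labels every animal was C57BL6/J at postnatal day 100. One treatment text stands on all 18 samples. It describes 21 days of PLX5622, then 44 days of access to 15% ethanol on alternate days, and tissue collection 24 hours after the last ethanol. Because that text names PLX5622 for the control samples as well, the chow label was used for the groups, and what else each animal received is not settled by the labels. The ethanol text is common to all samples, so nothing here compares ethanol with its absence. Libraries carry numbers that the labels do not explain, so p-values measure the spread between these samples, which may be in part technical.

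Adenylyl cyclases form cAMP from ATP when receptors coupled to the G protein Gs are active, and receptors coupled to Gi hold most of them back. The isoforms differ in what else they sense, chiefly calcium with calmodulin and the beta-gamma subunits of G proteins. Phosphodiesterases end the signal. The PDE4, PDE7 and PDE8 families hydrolyse cAMP, PDE5, PDE6 and PDE9 hydrolyse cGMP, and PDE1, PDE2, PDE3, PDE10 and PDE11 accept both. In forebrain neurons this balance sets the activity of protein kinase A and of the transcription factor CREB.

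Depth ran from 990136 to 1742680 counts a library (median 1384979). The members together took 0.437% of all counts, 109056 counts. PLX5622 libraries held less RNA of microglia, the cells the drug acts on. All 16 tested genes of a list of 19 microglial markers fell, with a median log2 fold change of -1.77, and the list summed to 560 to 793 CPM (counts scaled by effective library size) in controls and 151 to 274 CPM with PLX5622. Cx3cr1, the fractalkine receptor, fell from 50.7 ± 5.92 to 11.96 ± 2.46 CPM (SD, n = 9 each, edgeR adjusted p = 1.4e-23). The purinergic receptor gene P2ry12 fell by 2.17 on the log2 scale and Csf1r by 1.77. Trem2 was at 0 in all libraries. In bulk tissue, fewer cells of a type and less RNA per cell cannot be told apart. Markers of cortical glutamatergic neurons summed to 3192 to 3529 CPM in controls and 3124 to 3508 CPM with PLX5622. Of these 10 genes 0 were called, beside 0.398% of all genes tested.

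Both families ranged from abundant transcripts to genes with few counts. The lowest cyclase, Adcy10, had 45 counts over all libraries, and of the phosphodiesterases only Pde4c had none. Since longer transcripts can yield more reads, genes were compared with each other as CPM per kilobase of merged exons. On that scale Pde1a, a phosphodiesterase switched on by calcium and calmodulin, was highest at 97.6, followed by Adcy2 at 83.8, Pde4d at 65.2, Adcy1 at 60.1 and Pde4b at 51.6. The next were Pde10a at 26.0, Pde8b at 25.6 and Pde4a at 24.3. Over the 18 libraries Pde10a ran from 21.35 to 32.2 and Pde4a from 20.2 to 27.0 per kilobase, so the order of these genes lies within the spread of libraries. By CPM alone the order was Pde4d at 782, Adcy1 at 752, Pde1a at 587, Pde4b at 545 and Adcy2 at 353 CPM. The same 5 genes led on both scales, in a different order. Division by exon length assumes reads spread along the whole transcript. The plan of the analysis took the method as biased to the transcript end, and the spread of reads was not tested. Where reads gather at the transcript end, that division lowers genes with long exons. Merged exons were 12.52 kb in Adcy1, 12.01 in Pde4d, 10.56 in Pde4b, 6.01 in Pde1a and 4.21 in Adcy2. The order within the 5 genes is therefore not settled. These 5 held 68.0% of the members' counts. Across the 34 genes the level in CPM went with the length of the gene on the chromosome (Spearman's rho 0.58, and 0.52 per kilobase of exon, across genes, which are not independent replicates).

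**Figure D1:**
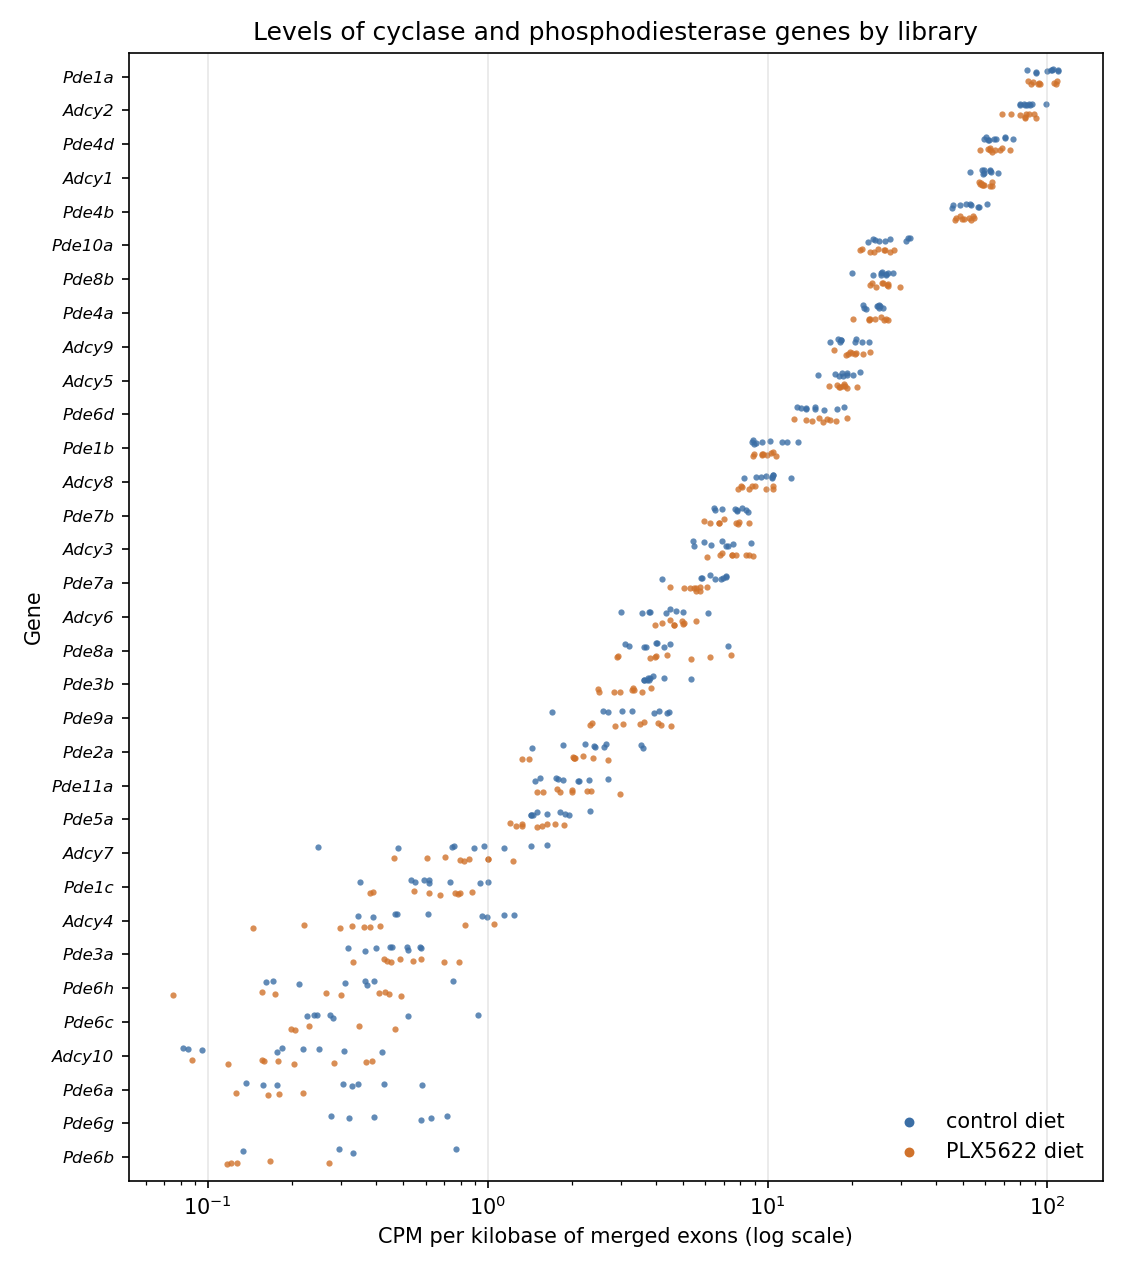
Levels of the 33 members with any count, 1 point per library, as CPM per kilobase of merged exons on a log axis (blue, control diet; orange, PLX5622 diet; libraries at 0 are not drawn). The genes span Pde1a at a mean of 97.6 to Pde6b at 0.13, and the diets overlap in every gene that was tested.

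No member was called different between the diets. Of the 34 genes 24 passed the count filter, 7 Adcy and 17 Pde, and by edgeR at an adjusted p under 0.05 the PLX5622 diet left 0 of them lower and 0 higher. Over all 11051 genes tested 0.398% were called, 0.353% lower and 0.0452% higher. DESeq2 also called 0 of the 32 members it gave an adjusted p (0.44% of all genes). At an unadjusted p under 0.05 there were 4 members, Pde3b, Pde2a, Pde7a and Adcy8, all with negative values, beside 6.79% of all genes in either direction and 3.22% with negative values. By DESeq2 only 1 of these 4, Pde3b (unadjusted p = 0.0056), was under 0.05, and Pde2a (0.061), Pde7a (0.058) and Adcy8 (0.062) were not. Log2 fold changes ran from -0.37 to 0.16, 15 negative and 9 positive. Their median was -0.02, beside 0.00 over all genes, and their median size without sign was 0.058, beside 0.069. In 0 of the 24 genes were the libraries of the diets fully separated (0.199% of all genes).

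How large a difference the libraries leave room for can be read from the 95% intervals of single genes, which are not adjusted for the number of genes. Of the 23 members with an interval, 14 had it within 1.25-fold in both directions and 22 within 1.5-fold. The interval of Pde2a alone reached further. Pde11a has none, because edgeR bounded its p by counting noise. In simulated counts for this comparison over 10934 genes, 50% of genes changed 1.25-fold and 82% of genes changed 1.5-fold were called. The changed genes were drawn from all tested genes and not matched to the members' levels. With 168 simulated calls beside 44 in the data, the adjusted threshold was more lenient there. These shares are therefore not the power for the members.

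**Figure D2:**
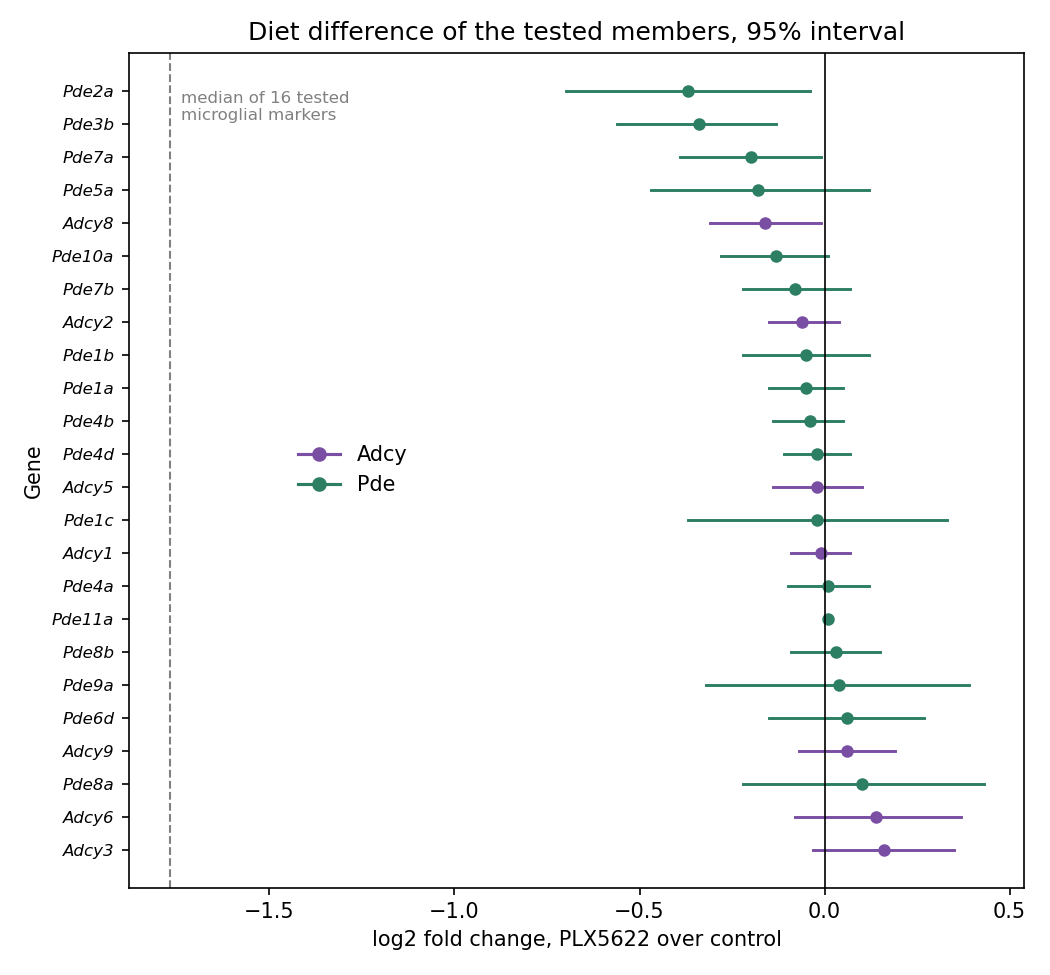
Log2 fold change of PLX5622 over control (horizontal axis) for the 24 tested members, with 95% intervals from edgeR as bars (purple, Adcy; green, Pde; Pde11a without a bar). All points lie between -0.37 and 0.16, and the dashed line marks the median of the 16 tested microglial markers, -1.77.

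Among the cyclases stimulated by calcium and calmodulin, Adcy1 is the main forebrain form, known for its part in synaptic plasticity and memory. It ran from 661 to 836 CPM in controls (median 742) and from 716 to 795 CPM with PLX5622 (median 734). The diets lay on top of each other, with a log2 fold change of -0.01 ± 0.04 (SE, edgeR adjusted p = 0.989) and an interval from 0.94-fold to 1.05-fold. Adcy8, the other calmodulin-dependent cyclase of neurons, ran from 67.1 to 99.2 CPM in controls (median 84.2) and from 64.1 to 85.4 CPM with PLX5622 (median 71.5). Of the 9 PLX5622 libraries 7 lay below the control median, though the ranges overlapped over most of their width. Its log2 fold change was -0.16 ± 0.08 (SE, unadjusted p = 0.040, edgeR adjusted p = 0.715). Adcy3, a cyclase of neuronal primary cilia, had the highest positive value of the 24 tested members, with 34.0 to 54.7 CPM in controls (median 42.9) and 37.8 to 55.3 CPM with PLX5622 (median 46.8). That difference of 0.16 ± 0.10 did not pass (edgeR adjusted p = 0.823). The last 1000 exonic bases of Adcy3 lie fully under the span of Cenpo on the other strand. Overlap with the exons of Cenpo was not measured. Cenpo held 64 counts over all libraries, beside 1089 of Adcy3. The strand setting of the counting is not given in the sources used here, so whether reads of the 2 genes were mixed is not known.

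The cyclases that calcium inhibits are Adcy5, the dominant form of the striatum, and Adcy6. Adcy5 had 109 to 154 CPM in controls (median 134) and 119 to 150 CPM with PLX5622 (median 134), the highest and the lowest both in controls. Its log2 fold change was -0.02 ± 0.06 (SE, edgeR adjusted p = 0.991). Adcy6 had 20.3 to 41.4 CPM in controls (median 29.4) and 26.9 to 37.6 CPM with PLX5622 (median 31.4), with 0.14 ± 0.11 (edgeR adjusted p = 0.888), and 98.3% of its last 1000 exonic bases lie under Gm29331 on the other strand, a model with 0 counts.

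Adcy2, Adcy4 and Adcy7 respond to beta-gamma subunits released by Gi-coupled receptors. Adcy2 made up most of this class with 337 to 415 CPM in controls (median 356) and 291 to 382 CPM with PLX5622 (median 351), a log2 fold change of -0.06 ± 0.05 (SE, edgeR adjusted p = 0.899). Adcy7, known as a cyclase of blood and immune cells, was too low for the count filter, with 74 counts in controls and 69 with PLX5622. It was at 1.66 to 10.9 CPM in controls (median 6.01) and 3.12 to 8.27 CPM with PLX5622 (median 5.56), so the PLX5622 range lay inside that of controls. Fitted without a count filter its log2 fold change was -0.15 ± 0.25 (SE, edgeR adjusted p = 0.904). Adcy4 had 42 and 27 counts. Adcy9, a widely expressed cyclase, was at 0.06 ± 0.07 (SE), and the bicarbonate-sensing soluble cyclase Adcy10 had 21 and 24 counts.

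Summed over all 10 cyclase genes, libraries held 1436 to 1588 CPM in controls and 1473 to 1508 CPM with PLX5622. The sum was 1515 ± 42.8 CPM in controls and 1496 ± 14.4 CPM with PLX5622 (SD, n = 9 each). The calmodulin-stimulated class made 58.0% of it in controls and 58.2% with PLX5622, the beta-gamma class 24.4% and 23.7%, and the calcium-inhibited class 10.8% and 11.0%. These sums are given without a test.

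The cAMP-specific phosphodiesterases were led by PDE4, the family inhibited by rolipram, which made 51.1% of the summed Pde level in controls and 52.0% with PLX5622. Pde4d ran from 715 to 907 CPM in controls (median 775) and from 692 to 882 CPM with PLX5622 (median 763). Its log2 fold change was -0.02 ± 0.04 (SE, edgeR adjusted p = 0.985) and its interval 0.93-fold to 1.05-fold. Pde4b, a regulator of inflammatory signalling in immune cells as well as of neuronal cAMP, ran from 481 to 641 CPM in controls (median 558) and from 495 to 576 CPM with PLX5622 (median 531). Its PLX5622 libraries lay within the range of controls, at -0.04 ± 0.05 (SE, edgeR adjusted p = 0.933), with an interval of 0.91-fold to 1.03-fold. Pde4a had 168 to 199 CPM in controls (median 190.5) and 155 to 207 CPM with PLX5622 (median 186), at 0.01 ± 0.05 (edgeR adjusted p = 0.998). Pde4c was at 0 in all 18 libraries, which allows up to 0.12 CPM over all of them. That limit covers counting error only. The alpha-globin genes Hba-a1 and Hba-a2 were also at 0 in all libraries, beside 137.9 ± 49.7 CPM (SD, n = 9) of the beta-globin gene Hbb-bs in controls, so a 0 in these counts is not in itself a sign of absent RNA. How reads of Pde4c were assigned was not tested.

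Pde7a and Pde7b encode rolipram-insensitive cAMP phosphodiesterases. Pde7a ran from 32.5 to 55.2 CPM in controls (median 50.2) and from 34.8 to 47.3 CPM with PLX5622 (median 43.0). All 9 PLX5622 libraries lay below the control median, but control 9, at 32.5 CPM, was lower than any of them. The log2 fold change was -0.20 ± 0.09 (SE, unadjusted p = 0.035, edgeR adjusted p = 0.687). Pde7b was at -0.08 ± 0.07. Pde8b, of a high-affinity cAMP family, had 118 to 165 CPM in controls (median 151) and 136.5 to 175.5 CPM with PLX5622 (median 152), at 0.03 ± 0.06 (edgeR adjusted p = 0.971). Of the last 1000 exonic bases of Pde8b 44.7% lie under gene models on the other strand, whose counts were not examined. Pde8a was at 0.10 ± 0.16.

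Pde3b had the smallest p of the 24 tested members. It encodes a membrane-bound phosphodiesterase that cGMP inhibits, best known for carrying the insulin signal in fat and liver cells. Its gene (ENSMUSG00000030671.9) lies on chromosome 7 from 114415281 to 114539251 on the plus strand in the GENCODE M21 annotation of GRCm38. Libraries ran from 32.9 to 48.7 CPM in controls (median 34.4) and from 22.5 to 34.8 CPM with PLX5622 (median 29.9). The other 8 controls lay between 32.9 and 38.7 CPM, apart from control 8 at 48.7, and 8 of 9 PLX5622 libraries were below the control median. Means were 36.2 ± 5.0 and 28.4 ± 4.2 CPM (SD, n = 9 each). The log2 fold change was -0.34 ± 0.11 (SE), with an interval of 0.68-fold to 0.92-fold, an unadjusted p of 0.0022 and an edgeR adjusted p of 0.236. Leaving out 1 library at a time gave values from -0.38 to -0.28, with an adjusted p of 0.166 to 0.475. Without control 8 the value was -0.28 (edgeR adjusted p = 0.475). An unadjusted p under 0.05 was kept in 18 of these 18 fits for Pde3b, in 14 for Pde2a, in 12 for Pde7a and in 8 for Adcy8. The summed microglial markers given above moved with the diet, and their part in the level of Pde3b was not tested. Its relative Pde3a, a phosphodiesterase of heart and vessel muscle, had 71 and 86 counts.

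**Figure D3:**
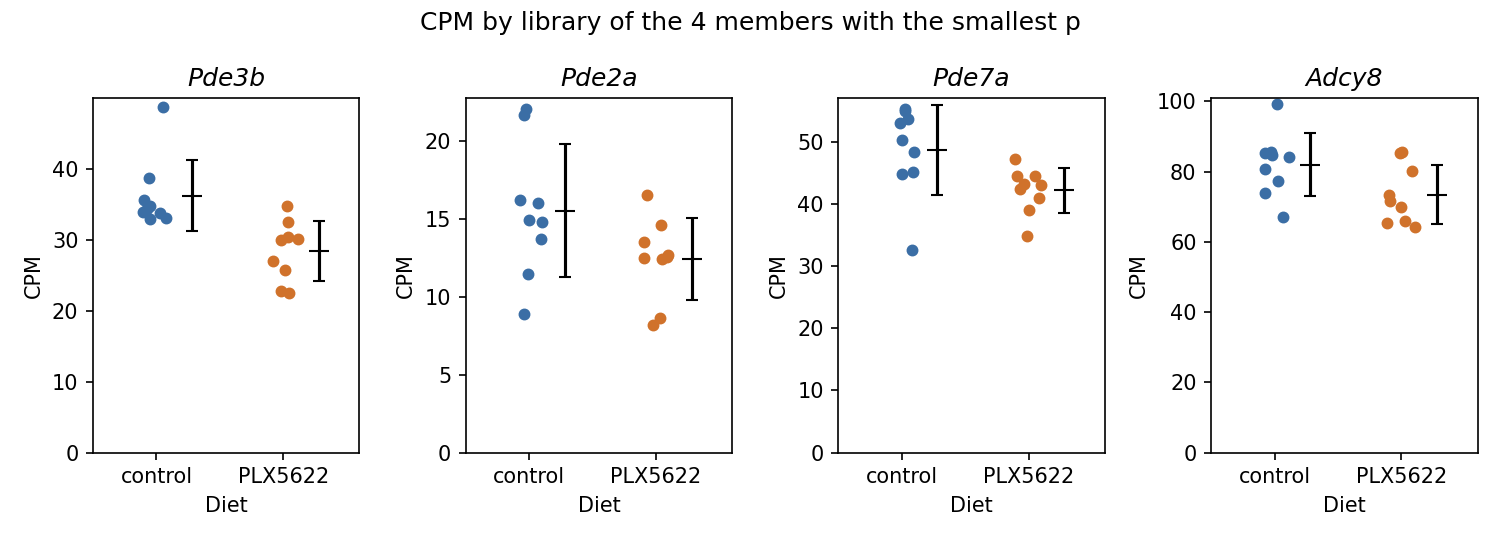
CPM by library of Pde3b, Pde2a, Pde7a and Adcy8 on control and PLX5622 diet (vertical axes start at 0; bars are the mean and SD of 9 libraries). The diets overlap in all 4 genes; in Pde3b control 8 stands at 48.7 CPM, above the other controls.

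Pde2a, a phosphodiesterase that cGMP activates, had the most negative value of the 24 tested members. It ran from 8.87 to 22.04 CPM in controls (median 14.9) and from 8.18 to 16.5 CPM with PLX5622 (median 12.5), with the lowest libraries of both diets near each other. The log2 fold change was -0.37 ± 0.17 (SE, unadjusted p = 0.029, edgeR adjusted p = 0.649) and the interval 0.61-fold to 0.97-fold. In GENCODE M21 the whole span of Pde2a, on chromosome 7 from 101421691 to 101512827, lies under the model Gm45837 on its own strand, and so do 99.2% of its last 1000 exonic bases. Gm45837 held 17 counts over all libraries. How reads that match both models were counted is not given in the sources used here, so the rank of Pde2a is uncertain. Shares of the summed Pde level include Pde2a as counted and carry the same uncertainty.

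The PDE1 family, which calcium and calmodulin activate, made 22.3% of the summed Pde level in controls and 22.2% with PLX5622. Pde1a ran from 507 to 657 CPM in controls (median 618) and from 513 to 648 CPM with PLX5622 (median 560), at -0.05 ± 0.05 (SE, edgeR adjusted p = 0.918). The libraries of each diet were spread over nearly the same range. Pde1b was at -0.05 ± 0.09 and Pde1c at -0.02 ± 0.18. Pde10a, best known from the medium spiny neurons of the striatum, ran from 292.5 to 413 CPM in controls (median 339) and from 274 to 364 CPM with PLX5622 (median 319.9). Its log2 fold change was -0.13 ± 0.07 (SE, edgeR unadjusted p = 0.068, adjusted p = 0.772), with 7 of 9 PLX5622 libraries below the control median. The unadjusted p of Pde10a by edgeR depended on the setting. It was 0.0067 without a count filter (adjusted p = 0.437) and 0.13 with the long-gene share as a term. Leaving out 1 library at a time, it was under 0.05 in 6 of 18 fits. Pde11a was at 0.01 ± 0.18.

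Phosphodiesterases that act on cGMP alone were low. Pde5a, the target of sildenafil, was at 16.8 ± 3.0 CPM in controls and 14.7 ± 2.3 CPM with PLX5622, a log2 fold change of -0.18 ± 0.15 (SE, edgeR adjusted p = 0.896). Pde9a, at 11.86 ± 3.32 and 11.97 ± 2.81 CPM, was at 0.04 ± 0.18 (edgeR adjusted p = 0.996). Of the photoreceptor family only Pde6d passed the filter. It encodes a carrier of prenylated proteins rather than a catalytic subunit and was at 0.06 ± 0.11. The catalytic subunits of rods and cones, Pde6a, Pde6b and Pde6c, had 15, 10 and 10 counts in controls and 4, 6 and 6 with PLX5622. Pde6h had 29 counts in each diet. Pde6g, the inhibitory subunit of rods, had 9 counts in 6 of 9 control libraries and 0 in all PLX5622 libraries. Against a floor of 3 counts over the PLX5622 group the ratio was 3.11-fold. That value does not allow for counting error of the 9 control counts, so it is not a lower bound. In a fit without a count filter, in which 0.461% of all genes were called, its adjusted p was 0.0662 and that of Pde6a 0.594, so neither passed.

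Summed over the 24 Pde genes, libraries held 2807 to 3343 CPM in controls and 2687 to 3075 CPM with PLX5622, with means of 2985 ± 181 and 2886 ± 124 CPM (SD, n = 9 each, no test). The cAMP-specific families made 61.4% of the sum in controls and 62.5% with PLX5622, the dual families 36.3% and 35.3%, and PDE5 with PDE9 0.964% and 0.926%. The sum takes Pde2a as counted, so these shares carry its uncertainty.

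Libraries of 1 diet differed from each other in a way that the longest member followed. Pde4d spans 1503.5 kb of chromosome 13, from 108449948 to 109953461. The share of counts in all other genes spanning over 500 kb was 11.5% to 13.7% in controls, highest in control 8, and 11.2% to 13.1% with PLX5622, highest in PLX5622 25. Within controls the log2 CPM of Pde4d followed this share with a Pearson's r of 0.95 (exact permutation p = 4.7e-05, adjusted 0.0022 over 48 relations, n = 9), with Spearman's rho at 0.97 (exact p = 0.00017, 0.0079 after adjustment). Within PLX5622 r was 0.95 (exact permutation p = 0.00028, adjusted 0.0067) and rho 0.92 (exact p = 0.0013, adjusted 0.021). Without the 2 libraries farthest from the median share r was 0.91 and 0.84. Both measures are shares of the same libraries.

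Pde1a, with a span of 295 kb, passed within PLX5622 at r = 0.86 (exact permutation p = 0.0022, adjusted 0.035) and rho = 0.93 (exact p = 0.00075, adjusted 0.018), with r = 0.87 without the 2 farthest libraries. Within controls it had r = 0.47 and did not pass. Whether r differs between diets was not tested. In all, 3 of the 48 relations passed, by r and by rho alike. Span alone did not order the values. Pde4b, with a span of 519.7 kb, was at r = 0.84 in controls (exact permutation p adjusted 0.051) and 0.51 with PLX5622. Pde1c (499 kb) was at 0.51 and 0.00, and Pde10a (461 kb) at 0.55 and -0.14, though both are longer than Pde1a. Adcy2 (379.5 kb) was at 0.82 in controls (exact permutation p adjusted 0.051; 0.40 without the 2 farthest libraries) and 0.15 with PLX5622. Adcy6, with a span of 20.1 kb, was at -0.80 in controls (exact permutation p adjusted 0.070) and 0.11 with PLX5622. Adcy1, with a span of 115 kb, was at -0.04 and -0.21. With the share as a second term in the fit, a choice made after seeing the data, 0 members were called, Pde4d was at 0.01 and Pde3b at -0.32.

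**Figure D4:**
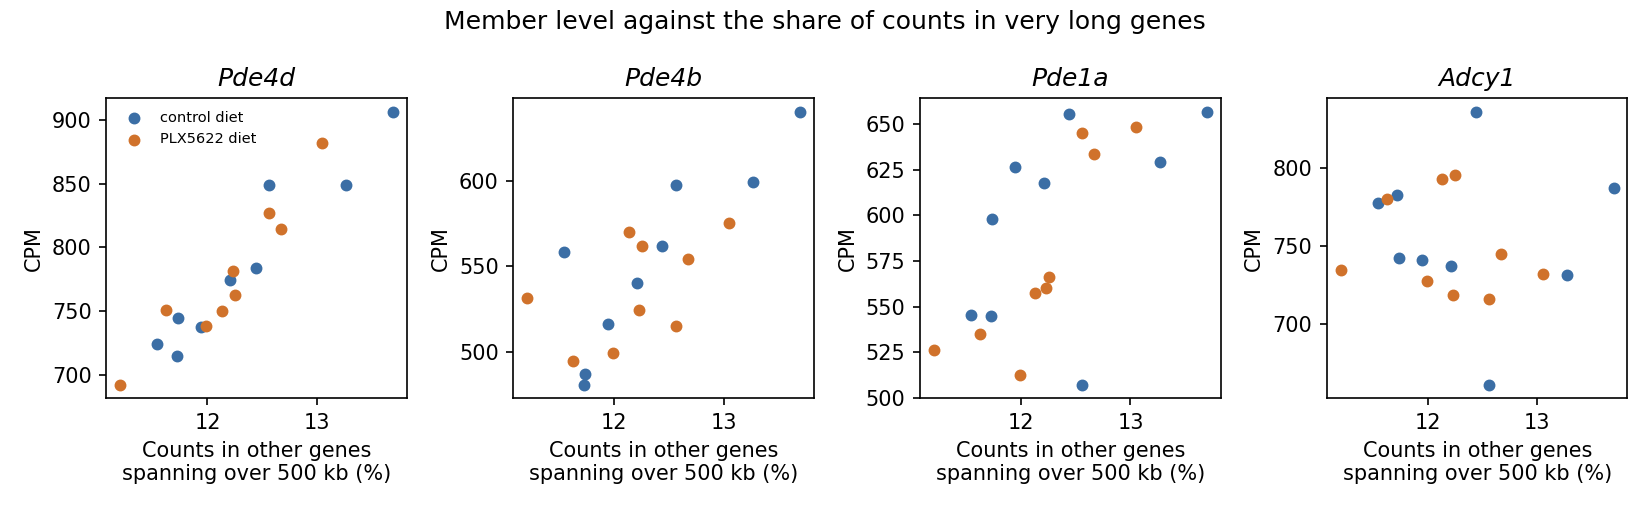
CPM of Pde4d, Pde4b, Pde1a and Adcy1 in each library (vertical axes do not start at 0) against the percentage of counts in other genes spanning over 500 kb (blue, control diet; orange, PLX5622 diet). Pde4d climbs with the share in both diets (r = 0.95 in each), Pde1a (r = 0.47 in controls, 0.86 with PLX5622) and Pde4b (0.84 and 0.51) pass in 1 diet or neither, and Adcy1 is at -0.04 and -0.21.

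Members known from the striatum (Pde10a, Adcy5, Pde1b, Pde7b and Pde2a) were set against the mean log2 CPM of 10 tested striatal markers, within each diet. Of the 10 relations 0 passed by Pearson's r (lowest exact permutation p = 0.17, adjusted 0.53) or by Spearman's rho (lowest exact p = 0.18, adjusted 0.65). Pde10a had r = -0.51 and rho = -0.50 in controls, and r = 0.29 and rho = 0.23 with PLX5622. Without the 2 farthest libraries r was -0.20 and 0.13. The striatal list summed to 773 to 844 CPM in controls and 760 to 858.5 CPM with PLX5622. Of its 10 tested genes 0 were called, beside 0.398% of all genes tested. Foxp1 (mean 365.6 CPM in controls) and Ptpn5 (176.7 CPM) made up most of the summed list. Drd1 was at 13.55 and Tac1 at 16.43 CPM in controls. The sum therefore says little about the low markers, and the amount of striatal tissue in the samples was not tested.

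Sample numbers of the diets do not overlap, so diet and whatever else went with the numbers cannot be told apart. In a fit with the position of the number within its diet, 0 of 24 members were called on position, beside 0.308% of all genes, and 2 had an unadjusted p under 0.05, beside 9.27% of all genes. These were Pde7b at 0.04 ± 0.01 for each step in position (log2 scale with SE; edgeR adjusted p = 0.221) and Pde4a at 0.03 ± 0.01 (edgeR adjusted p = 0.306).

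The rest of the pathway was read from 6 lists with 91 genes, of which 60 could be tested. Of these 0 were called by edgeR in either direction, beside 0.398% of all genes tested. An unadjusted p under 0.05 by edgeR was found for 2, beside 6.79% of all genes. Values were positive in 27 and negative in 33, and the median was -0.006 (log2). Among 9 genes of G protein subunits and their partners Gnas, which encodes the Gs alpha subunit, was at -0.02 ± 0.04 (SE) and the smallest p was that of the Gi gene Gnai2 at -0.09 ± 0.06 (edgeR adjusted p = 0.854). Receptors for adenosine, dopamine, noradrenaline and the peptides PACAP and VIP, with the PACAP gene itself, had 8 of 19 genes tested and a median of 0.03, with the beta-adrenergic receptor gene Adrb1 at 0.17 ± 0.08 (edgeR adjusted p = 0.663). Guanylyl cyclases and the neuronal nitric oxide synthase had 6 of 12 tested and a median of -0.01, with Gucy1a2, a subunit of the nitric oxide receptor, at -0.10 ± 0.06 (edgeR adjusted p = 0.799).

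Downstream, 16 of 26 genes listed as cyclic nucleotide effectors were tested, with a median of 0.03. They encode kinase subunits, kinase A inhibitors, exchange factors and channels. The kinase A inhibitor gene Pkib was at -0.26 ± 0.13 (SE, edgeR adjusted p = 0.739). The pacemaker channel gene Hcn2 was at -0.23 ± 0.11 (SE, edgeR adjusted p = 0.708) and the kinase A catalytic subunit gene Prkaca at 0.11 ± 0.07. Of 15 genes of anchoring proteins, which hold kinase A and phosphodiesterases together, 11 were tested with a median of -0.01, and Akap9 was at -0.11 ± 0.06 (edgeR adjusted p = 0.734). All 10 genes of CREB and its coactivators were tested, with a median of -0.02 and Crtc3 at -0.16 ± 0.09 (edgeR adjusted p = 0.799). Immediate-early genes, many of which carry CREB sites, were the only list of those examined, outside the microglial one, with calls. Of 13 genes 12 were tested, all 12 with positive values (median 0.60, log2), and 10 had an unadjusted p under 0.05 by edgeR, beside 6.79% of all genes. Called higher were 2, beside 0.0452% of all genes. Junb rose by 0.59 ± 0.13 (edgeR adjusted p = 0.015) and Fosb by 0.86 ± 0.20 (edgeR adjusted p = 0.016), with overlapping libraries in both genes. On the position of the sample number 8 of the 12 were called by edgeR, Fos, Arc, Nr4a1, Egr4, Btg2, Dusp1, Homer1 and Junb, beside 0.308% of all genes. Junb was at 0.09 per position (log2, edgeR adjusted p = 0.0333) and Fosb at 0.11 (adjusted p = 0.152). Crem, a CREB relative, was at 0.21 ± 0.13 (edgeR adjusted p = 0.815).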

How the data were processed

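RNA was sequenced single end from 18 libraries. Counts of reads per Ensembl gene were made by the authors and deposited without normalization; the submitters' processing notes list HTSeq (0.11.0) and Bowtie2 (2.3.4.3) among their tools and GRCm38.p6 among their builds, with no role or order. Strand setting and annotation release: not given in the sources used here. Of 54547 identifiers 53706 matched GENCODE M21, and the other 841 held 0.028% of counts.

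Genes were filtered with filterByExpr (minimum count 10, minimum total 15), scaled by TMM and tested with edgeR 4.0.16 (robust quasi-likelihood test, R 4.3.3), diet being the only term. The p-values were adjusted over all genes tested by Benjamini-Hochberg at 0.05. CPM uses effective library sizes. DESeq2 1.42.0, limma-voom 3.58.1, 1 surrogate variable (sva 3.50.0), other filters and leaving out each library were alternatives. The share of counts in genes over 500 kb was added after seeing the data. Correlations used exact permutation tests over 362880 orders. The fit was tested on simulated counts, where 9 of 168 calls were false.

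Members, gene lists and tests were chosen with earlier results of these data known. Named members were those of a written rule (16 members described in full), and the other members are given by their values. Some pathway genes, such as Gnas, Prkaca and Crem, were named outside that rule. Floors cover counting error only, and only that of the group without counts. No 2 libraries of 1 diet agreed within sampling noise (lowest chi-square per degree of freedom 1.129 over 72 pairs).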

Additional observations from a re-analysis of the deposited data

Results flagged for a closer look

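In 48 groups (24 tested members in each diet) the highest and lowest library were compared with the other libraries, using Dixon's 95% critical value for 9 samples. Chance alone marks about 5% of groups, and 4 were marked, all in controls. Control 8 was highest in 3 of them. It held 414.8 CPM of Adcy2, with the next control at 369.5, 48.68 CPM of Pde3b, with the next at 38.73, and 29.06 CPM of Pde8a, with the next at 18.03. Control 8 also had the highest share of counts in genes over 500 kb, 13.7%. Control 9 was lowest for Pde7a at 32.5 CPM, with the next control at 44.74. Without control 8 the log2 fold change of Pde3b was -0.28 (edgeR adjusted p = 0.475).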

How the results depend on the processing

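The count of members called was 0 in all 28 alternatives, of which 27 were planned and 1, the long-gene share, was chosen after seeing the data. The lowest adjusted p of a member was 0.124 with a count filter (Pde3b with 1 surrogate variable, edgeR) and 0.0662 without one (Pde6g). Over all genes the 39 lower calls became 65 with DESeq2, 92 without a filter and 8 at a mean of at least 50 counts. The 5 higher calls became 14 with limma-voom, 20 without a filter, 0 at a mean of at least 50 counts, 17 with position as a term, 11 with 1 surrogate variable and 10 at an adjusted p under 0.1. Leaving out 1 library gave 2 (without control 2 or 4) to 13 (without PLX5622 25). Sign changes occurred only in members near 0 among those named: with 1 surrogate variable Adcy5 was at 0.01 and Pde4a at -0.0017, and with the long-gene share Pde4d was at 0.01. Leaving out 1 library, Adcy1 ran from -0.03 to 0.01, Adcy5 from -0.05 to 0.01, Pde4a from -0.01 to 0.04, Pde4d from -0.04 to 0.01 and Pde8b from -0.01 to 0.05. With the striatal list as summed CPM, Pearson's r within PLX5622 was -0.35 for Pde10a and -0.19 for Pde7b. Within controls Pde10a was then at r = -0.70 (exact permutation p = 0.043, adjusted 0.43), beside -0.51 with the mean of the list. Without length the ranks were 1 for Pde4d, 2 for Adcy1, 3 for Pde1a, 4 for Pde4b and 5 for Adcy2. The cause of these shifts was not tested. No paired analysis was possible because the diets share no sample numbers. The count filter left 10 members untested.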
